A study of Mus musculus with 13 samples.

Results

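The enzymes that write and erase methyl groups on lysine 4 of histone H3 (H3K4) were followed at the RNA level in mouse Th17 cells. The group held 10 genes, chosen by name: 6 methyltransferases (Kmt2a, Kmt2b, Kmt2c, Kmt2d, Setd1a and Setd1b) and 4 demethylases (Kdm5a, Kdm5b, Kdm5c and Kdm1a). All 10 were found among 56941 gene IDs of the count table, and all 10 were among the 14681 genes that passed the filter on low counts. Naive CD4 T cells from mouse spleen were cultured for 72 hours under conditions that polarize them to Th17 cells, which are helper T cells that make IL-17A and IL-17F. For the wild-type group (WT, genotype Chaf1bWT, 3 libraries) no label states if a Cre is present. In the knockout group (KO, genotype Chaf1bfl/fl;Il17fCre+, 3 libraries) floxed Chaf1b alleles were combined with a Cre recombinase under Il17f, a gene that is itself part of the Th17 state. A group with Cre but unfloxed Chaf1b was not analysed here, and neither strain, age nor sex of the mice is given in the labels. Chaf1b encodes a subunit of CAF-1, the chaperone that places histones H3 and H4 on newly copied DNA, and the study set the groups side by side to learn what the gene does in Th17 cells.

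Methylated H3K4 marks active regulatory DNA: promoters of transcribed genes carry mainly the trimethylated form and enhancers mainly the monomethylated form. The methyltransferases each work inside a complex of the COMPASS type, built on a shared core of WDR5, RBBP5, ASH2L and DPY30. Demethylases of separate families oppose them: KDM5 enzymes remove the higher methylation states through a JmjC domain, and KDM1A, a flavin-dependent amine oxidase, removes the lower ones. In T cells H3K4 methylation decorates the cytokine and lineage factor genes that a helper cell expresses.

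The libraries held 35708879 to 45232055 counts, and the 10 genes had 1730 to 16036 counts in each. Chaf1b was at 13.2, 11.4 and 11.5 CPM (counts scaled to a common library total) in WT and 16.3, 14.9 and 13.5 in the libraries labelled KO, with no call (log2 fold change 0.31 ± 0.11 SE, adjusted p = 0.130). It passed as higher in the fit lacking WT replicate 1 (adjusted p = 0.0138) and with quality weights per library (0.0147). The counts sum all exons and the deleted part is not given in the sources used here, so they check no genotype, and the groups are called by their labels. Summed Th17 markers ran from 96.6 to 214 CPM in WT, highest in WT replicate 1, and from 35.8 to 38 in KO, with 4 of 6 genes called lower. Summed CD4 T cell markers ran from 1100 to 1250 and from 1080 to 1120 CPM, with 0 of 6 genes called. Within that sum Cd4 lay lower in every KO library than in any WT library (log2 fold change -0.36 ± 0.09 SE). Cd3g lay higher in every KO library (0.30 ± 0.09 SE), and the groups overlapped in the rest of the list. Summed markers of 5 other kinds of cell lay higher in KO without overlap (exact permutation p = 0.1 for each, 2-sided, the smallest that 3 against 3 allows). In gamma delta T cells 4 of 5 genes were called higher (sum 50.7 to 62.6 against 95.8 to 101 CPM), and in B cells 2 of 6, Ighm and Cd79b (50.8 to 66.1 against 88.2 to 93.3), with Ms4a1 at 0 to 0.114 CPM. In NK cells 1 of 4 was called, Klrk1 (8.24 to 10.5 against 14.9 to 18.6), in myeloid cells 0 of 6 (5.21 to 5.73 against 6.79 to 9.23) and in erythroid cells 1 of 6, Hbb-bt (0.390 to 0.835 against 1.49 to 4.94). Of the NK list Ncr1, Klrb1c and Klra8, and of the erythroid list Hba-a2, had 0 counts in every library. CD8 markers overlapped (14.1 to 16 against 12.4 to 16.6 CPM). The part of these cells in the results below was not tested.

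Of the 6 H3K4 methyltransferase genes, 4 fell in the libraries labelled KO (Kmt2a, Kmt2c, Kmt2d and Setd1b), by 13.1% to 17.0%, and none rose. The values of Kmt2b and Setd1a, which did not pass, were also below 0. Among all 14681 genes 2.47% were called lower, 3.92% higher and 6.39% in either direction. A call is an adjusted p under 0.05 in the quasi-likelihood test of edgeR (Benjamini-Hochberg adjustment over all genes), which is behind every adjusted p here unless another test is named. Among the 4579 tested genes with a mean of at least 50 CPM, a level that all 10 genes exceed, 3.95% were called lower. In all 6 methyltransferases every KO library lay below every WT library, a pattern held by 12.4% of genes tested. The median log2 fold change of the 6 genes was -0.21, beside -0.01 over all genes tested. In bulk RNA, fewer cells of a type and less RNA per cell cannot be told apart.

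Kmt2d and Kmt2c encode the large enzymes that monomethylate H3K4 at enhancers. Kmt2d (ENSMUSG00000048154.18) was at 307, 318 and 293 CPM in WT replicates 1, 2 and 3 and at 257, 257 and 271 CPM in KO replicates 1, 2 and 3. The lowest WT library thus stood 21.2 CPM above the highest KO library. On the log2 scale Kmt2d changed by -0.22 ± 0.05 (SE; 95% interval -0.33 to -0.12), and its adjusted p of 0.0213 was the smallest of the 10 genes. Kmt2c (ENSMUSG00000038056.16) was at 70.6, 69.7 and 68.2 CPM in WT and at 55.5, 56.7 and 62.0 CPM in KO. The 3 WT libraries were nearly level, with an SD of 1.24 CPM, and KO replicate 3 was the highest of its group. Kmt2c changed by -0.26 ± 0.06 (SE; -0.39 to -0.13; adjusted p = 0.0281) on the same scale.

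Kmt2a and Kmt2b encode the mammalian relatives of fly Trithorax, which methylate H3K4 at promoters of developmental and lineage genes and carry a CXXC domain that binds unmethylated CpG. Kmt2a (ENSMUSG00000002028.14) was at 261, 256 and 244 CPM in WT and at 206, 223 and 231 CPM in KO. The groups were 12.5 CPM apart at their nearest libraries. Its log2 change of -0.20 ± 0.05 (SE; 95% interval -0.32 to -0.08) had an adjusted p of 0.0489, just under the threshold. The call was lost with upper-quartile factors (0.0520) and in limma-voom (0.0528). Kmt2b (ENSMUSG00000006307.17) was at 185, 189 and 174 CPM in WT and at 173, 170.1 and 173 CPM in KO, with only 1.03 CPM between the nearest libraries of the 2 groups. It did not pass (log2 fold change -0.09 ± 0.05 SE, interval from -0.19 to 0.02, adjusted p = 0.340).

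Setd1b and Setd1a encode the catalytic subunits of the complexes that place most of the H3K4 trimethylation at active promoters. Setd1b (ENSMUSG00000038384.17) was at 63.8, 58.2 and 61.2 CPM in WT and at 49.3, 49.1 and 53.8 CPM in KO. Its value, -0.27 ± 0.06 (SE) on the log2 scale with an interval from -0.41 to -0.13, was the lowest fold change of the 10 genes, with an adjusted p of 0.0317. Setd1a (ENSMUSG00000042308.15) was at 68.4, 71.2 and 70.7 CPM in WT and at 65.0, 60.9 and 65.3 CPM in KO. Its libraries did not overlap, yet it did not pass over all genes (log2 fold change -0.14 ± 0.06 SE, interval from -0.26 to -0.01, adjusted p = 0.185).

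**Figure D1:**
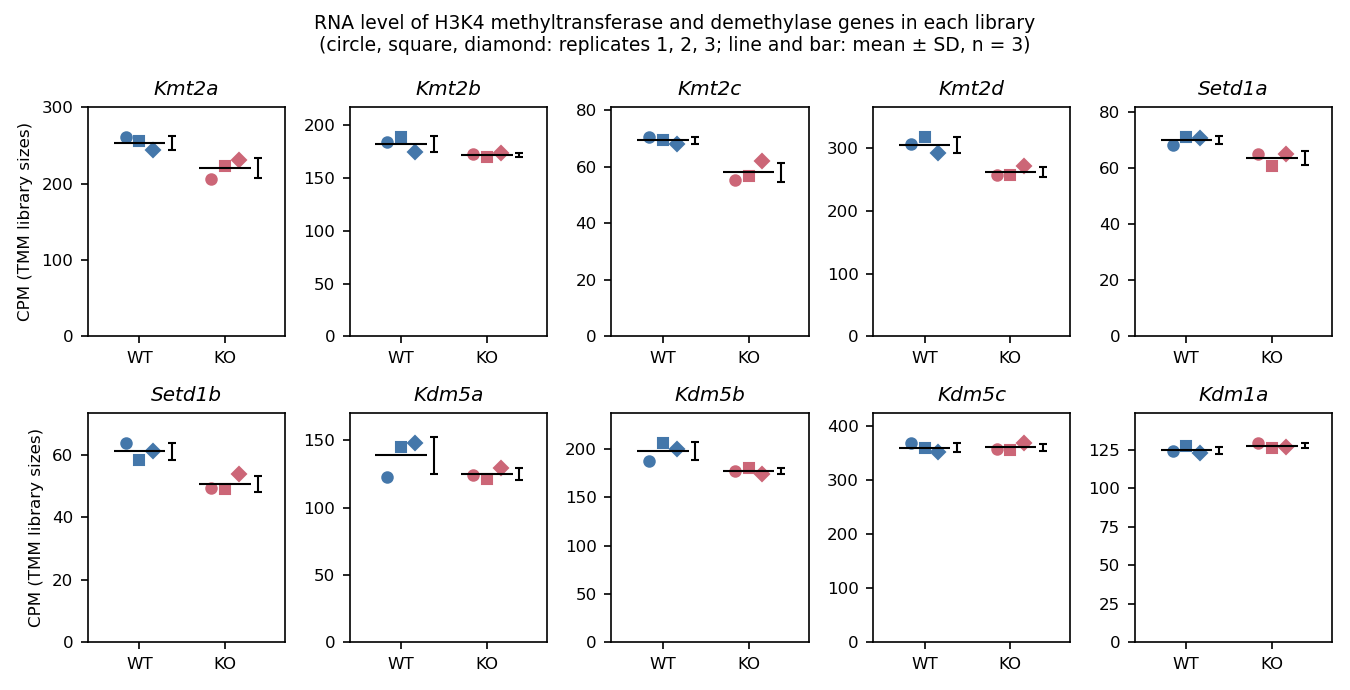
RNA level of the 10 genes in CPM (y axis, from 0, a separate scale per gene) in the WT and KO libraries; points are libraries, lines the group means and bars the SD (n = 3). In the 6 methyltransferases and Kdm5b every KO point lies below every WT point, while the Kdm5c and Kdm1a groups overlap.

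Promoter sequences were in RefSeq's table (GRCm38.p6) for 7 of the 10 genes, among them 3 of the 4 methyltransferase genes that fell. The 250 bases before the start are shown for those 3, with Kdm5c as the demethylase gene nearest to no change, on the strand of the gene. Capitals mark the GC box GGGCGG or its reverse complement CCGCCC, the motif bound by Sp and KLF factors. The regions are chr15:98871206-98871455 (minus strand) for Kmt2d, chr5:25498784-25499033 (minus) for Kmt2c, chr9:44881290-44881539 (minus) for Kmt2a and chrX:152232977-152233226 (plus) for Kdm5c.
Kmt2d: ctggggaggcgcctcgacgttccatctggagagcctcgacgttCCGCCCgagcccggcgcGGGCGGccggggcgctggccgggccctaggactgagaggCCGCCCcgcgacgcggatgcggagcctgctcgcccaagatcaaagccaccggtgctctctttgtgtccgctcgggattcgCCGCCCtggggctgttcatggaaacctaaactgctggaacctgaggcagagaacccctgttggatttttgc
Kmt2c: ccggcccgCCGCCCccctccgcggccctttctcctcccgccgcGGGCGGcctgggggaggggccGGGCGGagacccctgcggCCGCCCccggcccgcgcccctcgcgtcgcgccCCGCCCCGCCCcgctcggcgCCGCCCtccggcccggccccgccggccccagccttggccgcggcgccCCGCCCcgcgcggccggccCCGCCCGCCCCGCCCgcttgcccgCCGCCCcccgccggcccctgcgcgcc
Kmt2a: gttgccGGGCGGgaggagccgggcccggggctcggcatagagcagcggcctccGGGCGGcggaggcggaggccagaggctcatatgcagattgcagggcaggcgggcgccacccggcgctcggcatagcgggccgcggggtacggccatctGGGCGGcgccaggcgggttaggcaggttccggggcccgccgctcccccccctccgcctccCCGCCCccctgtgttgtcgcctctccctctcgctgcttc
Kdm5c: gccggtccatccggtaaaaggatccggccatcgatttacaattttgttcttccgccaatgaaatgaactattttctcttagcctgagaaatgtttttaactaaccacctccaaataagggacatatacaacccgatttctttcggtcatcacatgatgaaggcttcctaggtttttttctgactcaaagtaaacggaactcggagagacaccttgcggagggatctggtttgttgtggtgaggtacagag
The GC box was found 4 times before Kmt2d, 12 times before Kmt2c, 4 times before Kmt2a and not before Kdm5c, with overlapping matches counted separately. It was also found once before Kdm5b and not before Setd1a or Kdm1a. Of 12738 promoters of tested genes 56.7% held it. CpG dinucleotides numbered 26 before Kmt2d, 48 before Kmt2c, 29 before Kmt2a and 10 before Kdm5c, beside a median of 15 in promoters of tested genes, of which 99.7% have at most 48. They numbered 25 before Setd1a, 21 before Kdm1a and 13 before Kdm5b. Of the genes with no call, Setd1a and Kdm1a thus also lay above the median, while Kdm5b and Kdm5c lay below it.

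Searched on both strands, CCGGAAG (ETS factors), TTTGGCGC (E2F), TGACGTCA (CRE) and GCATGCGC (NRF1) were in none of the 7 windows, and in 13.7%, 0.730%, 2.61% and 4.29% of promoters of tested genes. Over the 670 tested genes with 1 promoter entry and at least 4 GC boxes, 4.03% were called lower and 3.28% higher, with a median log2 fold change of -0.04. Over the 4139 such genes with 1 to 3 GC boxes, 2.61% were called lower and 3.96% higher, with a median of -0.0001. Over the 3106 such genes with 0 GC boxes, 2.41% were called lower and 4.83% higher, with a median of 0.01. These shares include Kmt2a, Kmt2c and Kmt2d, the bound of 4 was set after the promoters were read, and no test was made.

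KO replicate 3 was the highest KO library in all 6 methyltransferases, and WT replicate 1 was the highest WT library in 3 of them (Kmt2a, Kmt2c and Setd1b). The 4 calls did not hold in every fit that left out 1 library. All 4 were lost when WT replicate 2 was left out, and likewise KO replicate 1 or KO replicate 2, with adjusted p from 0.0722 to 0.231 for the 4 genes in those 3 fits. Without KO replicate 3 only Kmt2c passed (adjusted p = 0.0475), with 0.0648 for Setd1b, 0.0656 for Kmt2d and 0.0912 for Kmt2a. Over all genes the lower calls in these 4 fits made up 0.648%, 0.461%, 0.475% and 0.593% of genes tested, in the order WT replicate 2 and KO replicates 1, 2 and 3. All 4 calls held without WT replicate 1 (adjusted p of 0.00334 for Kmt2a, 0.00209 for Kmt2c, 0.000228 for Kmt2d and 0.00476 for Setd1b), where 9.12% of genes tested were called lower, and without WT replicate 3, where 2.93% were. Setd1a joined them without WT replicate 1 (adjusted p = 0.0411). Under other tools, scaling factors and filters, the 4 calls stood in DESeq2's Wald test, where 3.88% of genes were called lower, with RLE factors (2.52%), with no filter on low counts (2.86%) and with a filter of at least 1 CPM in at least 3 libraries (3.25%). Kmt2c, Kmt2d and Setd1b, without Kmt2a, stood with upper-quartile factors (2.49%) and in limma-voom (2.09%). The fitted value of each of the 6 genes stayed below 0 in all 14 alternative fits, from -0.32 to -0.06.

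**Figure D2:**
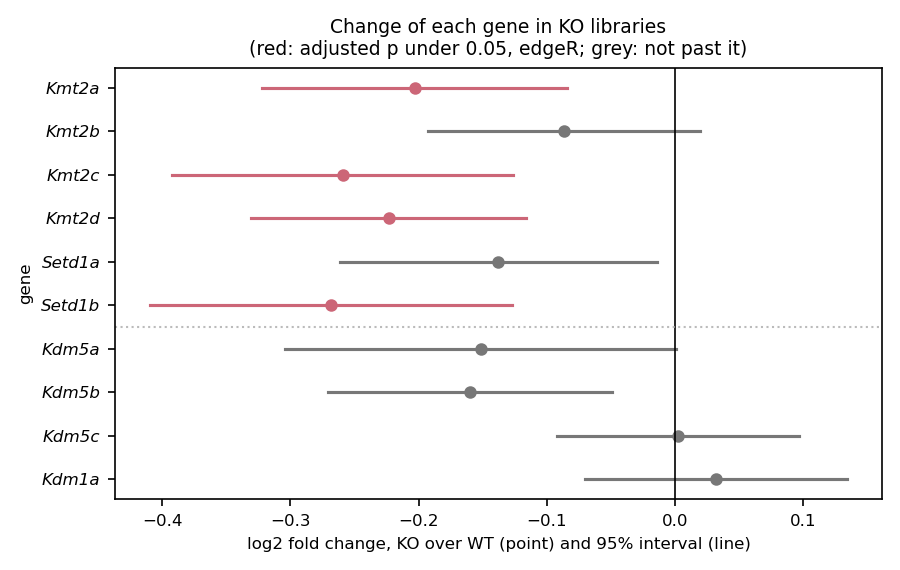
Log2 fold change of each gene, KO over WT (x axis), as a point with its 95% interval from edgeR; methyltransferases lie above the dotted line and demethylases below it. The 4 genes in red, Kmt2a, Kmt2c, Kmt2d and Setd1b, passed an adjusted p of 0.05.

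None of the 4 demethylases passed in edgeR, in DESeq2's Wald test or in limma-voom, and 1 of them, Kdm5b, had an unadjusted p under 0.05. Their median log2 fold change was -0.07. Kdm5b (ENSMUSG00000042207.18), whose enzyme removes H3K4 trimethylation and is common in dividing cells, was at 187, 206 and 199.7 CPM in WT and at 177, 179.8 and 174 CPM in KO. The groups stood 7.36 CPM apart (log2 fold change -0.16 ± 0.05 SE, interval from -0.27 to -0.05), with an unadjusted p of 0.00857 and an adjusted p of 0.0885. Kdm5a (ENSMUSG00000030180.16), first described as a partner of the retinoblastoma protein, was at 123, 145 and 148 CPM in WT and at 124, 121 and 129.8 CPM in KO. WT replicate 1 fell inside the KO range there, and the WT coefficient of variation of 9.83% was the highest of the 10 genes. Kdm5a had a log2 change of -0.15 ± 0.07 (SE; 95% interval -0.30 to 0.00; adjusted p = 0.239).

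Kdm5a and Kdm5b passed when WT replicate 1 was left out, with log2 fold changes of -0.23 (adjusted p = 0.000274) and -0.20 (adjusted p = 0.000623), and also in limma-voom with quality weights per library (0.00526 and 0.00175). In that fit and without WT replicate 1 the number of the 10 genes called lower was 7 rather than 4. The share of all genes called lower was also larger there, 9.37% and 9.12% beside 2.47%. WT replicate 1 is the library with the highest sum of Th17 markers, but whether that bears on these calls was not tested.

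Kdm5c and Kdm1a were close to level between the groups. Kdm5c (ENSMUSG00000025332.15), an X-linked gene known to escape X inactivation, was at 369, 359.9 and 352 CPM in WT and at 358, 356 and 369 CPM in KO. Its log2 change was 0.00 ± 0.04 (SE; adjusted p = 0.984), and the 95% interval in percent reached from -6.19% to 6.91%. Kdm1a (ENSMUSG00000036940.16), also called LSD1, was at 124, 127 and 123 CPM in WT and at 129.5, 126.5 and 126.8 CPM in KO. Its log2 change was 0.03 ± 0.05 (SE; adjusted p = 0.754), and the interval in percent reached from -4.75% to 9.75%. In both genes the libraries of the groups overlap. The intervals of Kdm5c and Kdm1a lie above the fitted values of Kmt2a, Kmt2c, Kmt2d and Setd1b. On the log2 scale, however, the interval of Kdm5c (-0.09 to 0.10) overlaps that of Kmt2a (-0.32 to -0.08). The fitted values of the demethylase genes Kdm5a (-0.15) and Kdm5b (-0.16) lie below those of Setd1a (-0.14) and Kmt2b (-0.09). Whether demethylase and methyltransferase genes differed in their change was not tested.

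**Figure D3:**
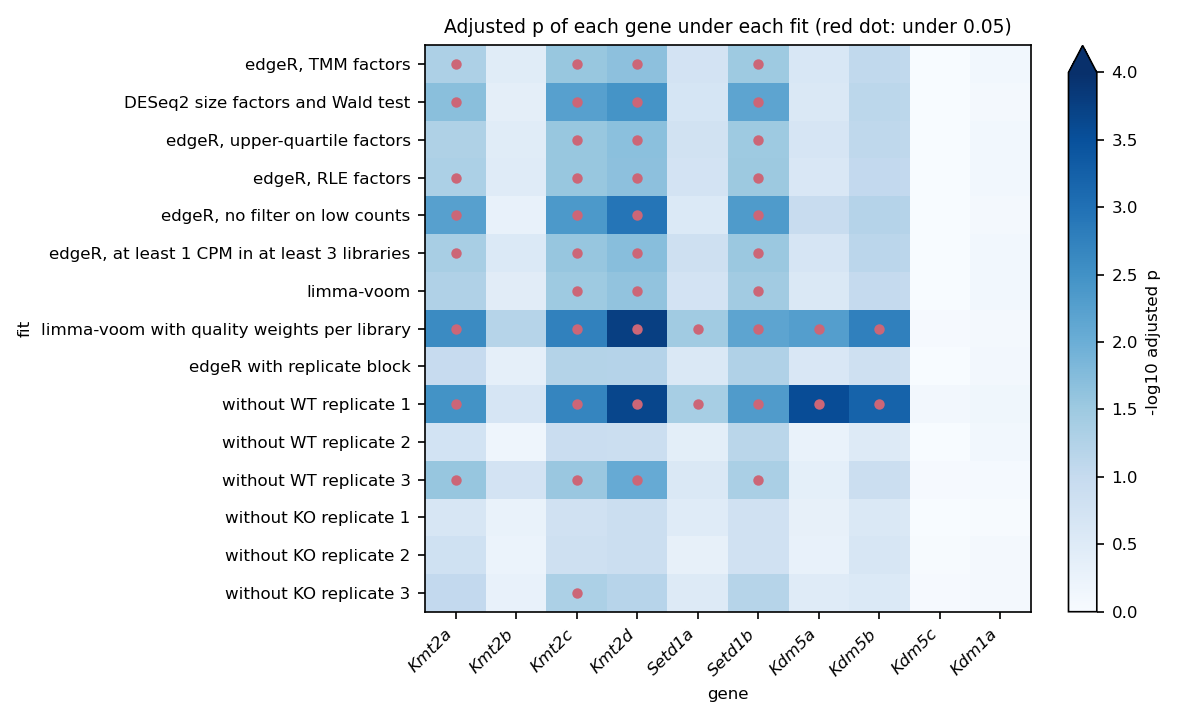
Adjusted p of the 10 genes (columns) in the reported fit and 14 alternative fits (rows), as shades of -log10 adjusted p, with a red dot under 0.05. Kmt2c holds most often, in 10 of 14 alternatives, and Kmt2b, Kdm5c and Kdm1a in none.

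Because Kdm5c has a Y-linked partner, Kdm5d, the sex-linked genes were read in each library. Kdm5d, Ddx3y and Eif2s3y were at 0 counts throughout, which is compatible with up to 3 in a library, and Uty had 1 count in WT replicate 1 and 0 elsewhere. Xist, the RNA that silences one X chromosome, was at 594, 689 and 653 CPM in WT and at 408, 485 and 514 CPM in KO. It was therefore counted in all 6 libraries, and every KO library lay below every WT library. Xist changed by -0.46 ± 0.08 (SE) on the log2 scale (adjusted p = 0.0114), and the adjusted p was 0.0611 (at -0.52) once WT replicate 1 was left out.

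The rest of the H3K4 machinery showed no call. Of 51 genes in 8 lists of partners, other enzymes and readers, 48 were tested, and Pagr1a, Kdm5d and Gfi1b had 0 counts. Of the 48, 0 passed in edgeR or limma-voom and 3 in DESeq2's Wald test (Dido1, Gfi1 and Spin1), while 12 had an unadjusted p under 0.05 in edgeR, 10 of them lower and 2 higher. The 48 fitted values were above 0 in 18 genes and below 0 in 30, with a median of -0.06.

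The shared COMPASS core had 0 of 4 calls and a median of 0.10. Rbbp5, whose protein bridges the catalytic SET domain and ASH2L, was at 129, 139 and 134 CPM in WT and at 143, 144 and 139.8 CPM in KO (log2 fold change 0.09 ± 0.05 SE, adjusted p = 0.360). Ash2l, which stimulates the SET domain, had a like value of 0.12 ± 0.05 (SE, adjusted p = 0.229), and Wdr5, the scaffold of the core, -0.06 ± 0.06 (SE, adjusted p = 0.604). Ash2l was named after its value was seen. In Rbbp5 and Ash2l every KO library lay above every WT library, as in 14.4% of genes tested.

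Subunits found in only some of the complexes had no call either. For the SETD1 complexes Hcfc1, a host cell factor that tethers them to transcription factors, had 0.02 ± 0.05 (SE) and Wdr82, which binds RNA polymerase II, -0.03 ± 0.05 (SE). For the KMT2A and KMT2B complexes Men1, which encodes menin, had 0.05 ± 0.07 (SE) and Hcfc2 0.14 ± 0.07 (SE). For the KMT2C and KMT2D complexes Kdm6a, the X-linked H3K27 demethylase UTX, had 0.09 ± 0.08 (SE) and the coactivator gene Ncoa6 -0.17 ± 0.07 (SE). Ncoa6 passed without WT replicate 1 (-0.21, adjusted p = 0.00499). Pagr1a of the same complexes was at 0 counts throughout.

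In the list of other H3K4 methyltransferases and Kmt2e, all 6 tested genes had fitted values below 0, with a median of -0.16 and no call. Kmt2e, a relative of the KMT2 genes that reads H3K4 trimethylation, was at 71.2, 73.4 and 72.1 CPM in WT and at 63.1, 63.3 and 66.4 CPM in KO (log2 fold change -0.17 ± 0.05 SE, adjusted p = 0.0937), and passed without WT replicate 1 (adjusted p = 0.0157). Setd7, of the same list, had -0.17 ± 0.07 (SE). In the separate list of other H3K4 demethylases Kdm1b, the second flavin-dependent enzyme, was the 1 gene tested and had no call (-0.20 ± 0.09 SE).

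Of 13 tested partners of KDM1A, 0 passed and the median was -0.09. Gfi1, a zinc finger repressor that recruits KDM1A in blood cells, was nearest to the threshold of all 48 genes (-0.19 ± 0.05 SE, adjusted p = 0.0563) and passed in 5 of 14 alternative fits. Hdac1, the deacetylase of the CoREST complex, had 0.15 ± 0.06 (SE) and passed as higher without WT replicate 1 (0.22, adjusted p = 0.000573), and Glyr1 had 0.06 ± 0.05 (SE). Readers of H3K4 trimethylation had 0 of 14 calls and a median of -0.06. Bptf, the reader of the NURF remodeller, had -0.13 ± 0.06 (SE) and Chd1, a chromodomain remodeller, -0.06 ± 0.08 (SE), and both passed without WT replicate 1 (-0.16 each, adjusted p of 0.00937 and 0.00975). Dido1 (-0.25 ± 0.07 SE, adjusted p = 0.0720) and Spin1 (-0.21 ± 0.06 SE, adjusted p = 0.0737), like Gfi1 named after their values were seen, were the nearest to the threshold. Without WT replicate 1, 11 of the 48 genes passed, 10 lower and 1 higher.

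**Figure D4:**
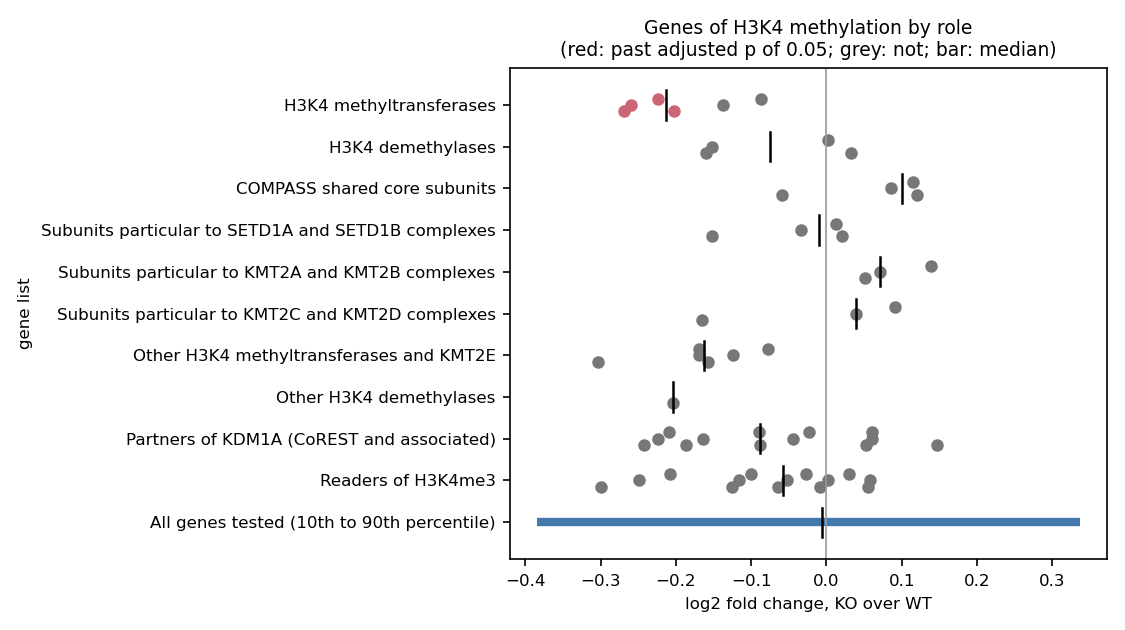
Log2 fold change, KO over WT (x axis), of each tested gene in the 2 groups of enzymes and the 8 other lists of H3K4 methylation; points are genes, black bars medians, and the blue band spans the 10th to 90th percentile of all genes tested (-0.38 to 0.34). The only red points, those past the threshold, are the 4 methyltransferases.

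The genes whose pattern over the 6 libraries was most like that of Kmt2d were Atp11a, a phospholipid flippase gene (Pearson's r = 0.998), Slc9a8, a sodium and proton exchanger gene (0.995), and Ankrd52, a phosphatase subunit gene (0.994). These came from 9678 genes with a mean of at least 5 CPM, and the libraries share the difference between the groups. Atp11a was at 78.1, 82.7 and 74.1 CPM in WT and at 60.4, 60.7 and 66.6 CPM in KO, which repeats the order of the Kmt2d libraries except for the nearly level KO replicates 1 and 2. Its log2 fold change was -0.32 ± 0.06 (SE, adjusted p = 0.0133), a call that fell away when WT replicate 2 (0.0865), KO replicate 1 (0.0981) or KO replicate 2 (0.0895) was left out. Slc9a8 and Ankrd52 did not pass (adjusted p of 0.0824 and 0.0718).

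Overlapping genes could share reads with some of the 10 genes, since the counting used no strand. By RefSeq, Kdm5a overlaps Ccdc77 (562 to 671 counts, beside up to 6741 of Kdm5a) and Kdm1a overlaps Luzp1 (528 to 701 counts, beside up to 5594 of Kdm1a). Kmt2a, one of the genes called lower, overlaps the lncRNA Gm39326 and Kmt2b the lncRNA Gm32082, and neither lncRNA was matched to a row of counts. Other overlapping genes matched in the table had at most 2 counts. Levels are not compared between genes, since exon lengths were not used here.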

How the data were processed

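RNA-seq was analysed for 6 Th17 cell libraries, 3 labelled WT and 3 labelled KO for Chaf1b; the other 7 of 13 samples were not analysed here. The labels name biological replicates but no separate animals, so p-values reflect the spread of these libraries, which may be technical. The deposited values are raw counts per gene, made by the authors with featureCounts 2.0.1 (version printed for 5 of 6 commands) and GENCODE vM33, exons summed by gene, with no strand, multi-mapping or paired-end option in those 5 commands, per the file headers. Aligner version and build: not given in the sources used here. Of counts from 1 to 20, 65.6% to 67.7% were even, and of counts of at least 1000, 48.8% to 50.9%. IDs were matched to symbols for 91.2%.

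Groups and replicate numbers came from the sample titles, and columns were matched through the commands. The table was fitted with edgeR 4.0.16 (R 4.3.3; default filter, TMM, robust quasi-likelihood F-test, Benjamini-Hochberg over 14681 genes, threshold 0.05). CPM was computed on TMM-scaled totals. Each SE is the size of the log2 change divided by the square root of F. DESeq2 1.42.0, limma 3.58.1 (voom, with and without quality weights), other factors and filters, a replicate block and leaving out each library were alternatives. The procedure was tested on simulated counts. No library was a copy of another within sampling noise (lowest chi-square/df 4.19).

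The members and lists were chosen with earlier results of these data known. Named were all 10 members, Chaf1b, every called gene of a pathway list (otherwise its 2 genes with the highest mean CPM), the sex-linked genes and the 3 genes most like the member with the smallest p; genes named after their values were seen are marked. A planned description of long genes was not made, since exon lengths were not used here.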

Additional observations from a re-analysis of the deposited data

How the results depend on the processing

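Of 10 genes, 4 were called lower in the reported fit and 0 higher; 0 were higher in every alternative. The lower count was 7 in limma-voom with quality weights, 0 with the replicate number as a block, and from 0 to 7 when 1 library was left out. Of the 48 other H3K4 genes, 0 were called in the reported fit; 3 were lower in DESeq2, 3 with no filter on low counts, 1 with the stricter filter (at least 1 CPM in at least 3 libraries) and 9 with quality weights, where 1 was higher, and leaving out 1 library gave 0 to 10 lower and 0 to 1 higher. Over all genes 938 were called (576 higher, 362 lower). With no filter 1568 were called and 746 were lower, with quality weights 2934 (1558 higher, 1376 lower), 569 were lower in DESeq2 and 231 with the block (1.57%), and leaving out 1 library gave 295 to 2961 calls (225 to 1589 higher, 70 to 1372 lower). The cause was not tested.

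The replicate block lost the calls of Kmt2a (adjusted p = 0.104), Kmt2c (0.0601), Kmt2d (0.0614) and Setd1b (0.0536). Deviations of same-numbered libraries from their group means had correlations of -0.0398, -0.0281 and 0.000874 for numbers 1, 2 and 3. The labels do not state whether same-numbered libraries share a day or a batch, and these correlations cannot decide it. Signs changed in genes without a call: Kdm5c to -0.0012 with no filter, to -0.0029 with the stricter filter, and from -0.0164 to 0.020 when 1 library was left out; Hcfc1 to -0.0040 with quality weights and from -0.0217 to 0.0421 with 1 library left out. With 1 library left out Men1 ran from -0.0179 to 0.1255 and Chd1 from -0.1558 to 0.0022.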
